A study of Mus musculus with 12 samples.

Results

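The 10 genes described here are established transcriptional targets of YAP1 that are often read as a sign of its activity: Anxa1, Clu, Areg, Ereg, Ctgf, Cyr61, Ajuba, Amotl1, Amotl2 and Lats2. They were found by gene symbol in a table of 28793 genes, where each symbol occurred once. The study profiled RNA of large-intestinal crypts from mice of strain C57BL/6, 3 months old, that differed in Tert, the gene of the telomerase reverse transcriptase, and its title links telomere dysfunction to YAP1 and tissue inflammation. Crypt epithelium that was not sorted gave 6 libraries, 2 from heterozygous mice (mTert_HET), 2 from Tert-null mice of generation 4 (mTert_NULL_Generation4, called null G4) and another 2 of the same generation whose labels call them reactivated for telomerase (mTert_reactivated_Generation4, called reactivated). GFP-sorted crypt cells, labelled stem or progenitor cells, gave another 6, 3 heterozygous and 3 from Tert-null mice of generation 3 (mTert_NULL_Generation3, called null G3). In the sample descriptions the heterozygous libraries are tagged G0 and the reactivated ones G4tam, so the generation label differs along with genotype. Beyond the tag tam, the sources used here do not give the way telomerase was reactivated. The promoter that drives GFP and whether animals were pooled are not given either. Libraries of 1 group are labelled biological replicates, with no animal named. P-values therefore measure the spread between those libraries alone, which may be technical.

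YAP1 and its relative TAZ (gene Wwtr1) are co-activators that bind DNA through TEAD transcription factors. The Hippo kinases LATS1 and LATS2 phosphorylate YAP1 and keep it out of the nucleus. Several YAP1 targets, Lats2 among them, encode proteins that restrain YAP1, which closes a feedback loop. In the intestinal epithelium YAP1 is best known for its part in regeneration after injury, where the targets include EGF receptor ligands and genes of a fetal-like repair state.

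The stretches upstream of the annotated transcription starts are shown for the members whose RNA was measurable in crypts, except Lats2. They are also shown for members with a match to the core TEAD motif, CATTCC, read on both strands. They come from RefSeq on GRCm38.p6, which is mm10, and are written 5′ to 3′ on the gene's strand with motif matches in capitals. A window of 250 bases before the start was on file for 7 of the members (8 starts, since Lats2 has 2), and not for Clu, Ereg and Ctgf. The windows shown whole lie at chr5:91139349-91139598 (plus strand) for Areg, chr3:145649986-145650235 (minus strand) for Cyr61 and chr14:54577662-54577911 (minus strand) for Ajuba. For Anxa1 (chr19:20390890-20390919, minus strand) and Amotl2 (chr9:102717727-102717756, plus strand) 30 bases around the match are shown. The windows of these 2 genes lie inside the annotated span of the gene.
Anxa1: actgcactgaacCATTCCtgtgaggaataa
Areg: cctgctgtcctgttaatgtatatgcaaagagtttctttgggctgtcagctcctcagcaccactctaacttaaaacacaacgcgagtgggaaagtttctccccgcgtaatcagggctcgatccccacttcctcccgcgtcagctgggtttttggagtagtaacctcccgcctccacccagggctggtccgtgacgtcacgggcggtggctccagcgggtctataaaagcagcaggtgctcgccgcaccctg
Cyr61: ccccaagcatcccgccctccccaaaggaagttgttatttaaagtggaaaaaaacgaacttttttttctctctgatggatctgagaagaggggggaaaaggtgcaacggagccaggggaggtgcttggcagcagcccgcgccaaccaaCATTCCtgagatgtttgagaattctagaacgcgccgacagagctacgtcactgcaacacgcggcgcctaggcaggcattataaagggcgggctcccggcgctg
Ajuba: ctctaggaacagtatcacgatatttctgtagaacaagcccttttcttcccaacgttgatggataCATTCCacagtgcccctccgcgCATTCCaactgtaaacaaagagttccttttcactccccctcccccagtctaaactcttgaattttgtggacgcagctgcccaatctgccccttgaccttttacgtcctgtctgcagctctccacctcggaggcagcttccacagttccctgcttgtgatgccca
Amotl2: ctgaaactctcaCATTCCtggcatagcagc

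Matches to CATTCC were present upstream of 4 of the 7 genes, and 12.6% of all 32851 promoter windows of that length held one. Counted from the start, with -1 as the base before it, the match of Anxa1 began at -236, that of Cyr61 at -103, that of Amotl2 at -65, and Ajuba had 2, at -186 and -164. Areg, Amotl1 and Lats2 had none in their windows. The AP-1 motif TGANTCA, which often lies near TEAD sites, was in 6.75% of all windows and in those of 0 of the 7 members. Anxa1 and Areg were the most abundant members in crypts, and only the former had a match. These matches describe letters in a window and are not measured binding sites.

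**Figure D1:**
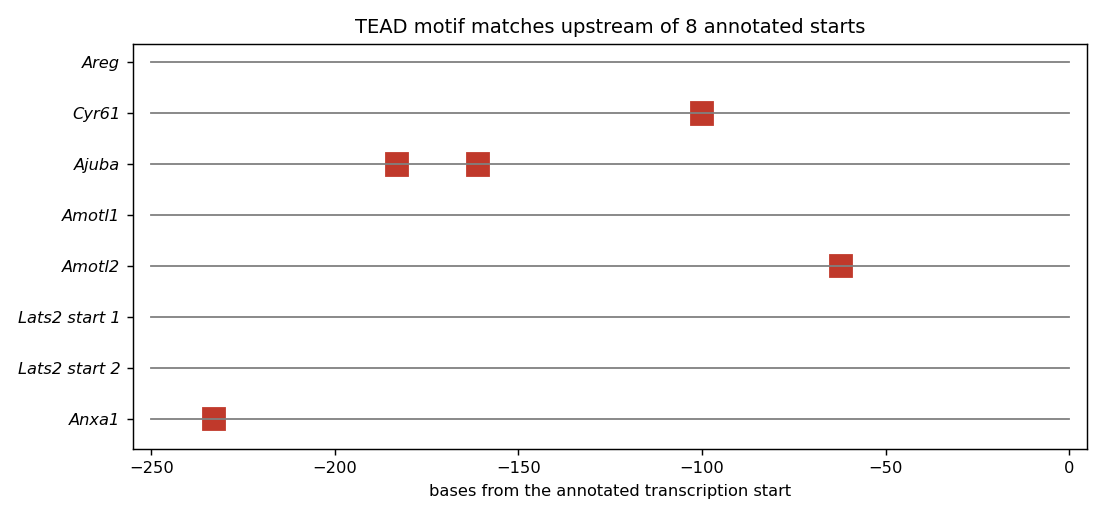
Matches to the core TEAD motif (red boxes) in the 250 bases upstream of 8 annotated starts of 7 members; the horizontal axis is the distance in bases from the start. Anxa1, Cyr61 and Amotl2 have 1 match each and Ajuba has 2, while Areg, Amotl1 and both starts of Lats2 have none.

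The unit is RPKM, a read count divided by gene length and by the size of the library. In the unsorted libraries the smallest steps of RPKM implied a depth of 75.0 to 103.3 M reads per library, from which approximate read numbers are given for members. In 5 of the 6 sorted libraries no single step size held, so no read numbers are given for them. In crypts, Tert reached 0.459 and 0.251 RPKM in the heterozygous pair. The null G4 pair had it at 0.00778 and 0.0377 RPKM, and the pair labelled reactivated fell inside that range, at 0.0171 and 0.0311. Which part of Tert was deleted is not stated, so Tert is an incomplete check of the labels. Y-linked RNA was present in both unsorted heterozygous libraries and in reactivated replicate 2 (Ddx3y between 4.73 and 4.78 RPKM), whereas Ddx3y was at or below 0.00574 RPKM in the other 3 unsorted libraries. Of the sorted libraries, null G3 replicate 2 had it (Ddx3y at 1.75 RPKM) and the other 5 were at or below 0.00596 RPKM. In crypts, sex cannot be told apart from genotype between the null G4 and heterozygous pairs alone. Among the sorted libraries, that labelled null G3 replicate 1 stood apart, with small intestinal enterocyte markers summing to 3413 RPKM against 17.1 to 28.6 in the other 5, and stem cell markers to 5.18 RPKM against 75.8 to 98.8. Results in sorted cells are therefore given with it and, where they differ, without it.

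All 8 epithelial markers (Epcam, Cdh1 and keratins among them) were expressed in every group, summing per library to 1630 and 2195 RPKM for heterozygous crypts, to 2822 and 3477 for null G4 and to 2838 and 3121 for reactivated ones. Markers of other cells were scarce. The 9 fibroblast genes summed to 1.84 to 2.33 RPKM in heterozygous, 3.78 to 4.75 in null G4 and 1.33 to 3.42 in reactivated crypts, so that they were higher in both null G4 libraries. For 6 smooth muscle genes the sums were 3.12 to 3.39, 4.03 to 4.56 and 3.44 to 4.05 RPKM in that order. Over all 6 libraries they were 0.302 to 0.634 RPKM for 6 endothelial genes and 1.59 to 5.36 for 8 immune cell genes, and no defining marker of these lists was at 0 in every crypt group. Proliferation genes (8 of 8 expressed) summed to 63.6 and 65.8 RPKM for heterozygous, to 139.5 and 155.6 for null G4 and to 122.7 and 68.2 for reactivated crypts. Interferon gamma response genes summed to 45.5 and 61.3, 884.6 and 1040, and 1002 and 823.8 RPKM in the same order of groups. Mitochondrial ribosomal RNA took an estimated 12.2% and 16.7% of the reads in heterozygous crypts, 5.87% and 5.69% in null G4 and 5.32% and 9.23% in reactivated. In null G4 against heterozygous crypts 2 of 8 goblet cell markers fell, Clca3 and Fcgbp, where 66 of all 11464 tested genes did. The other goblet markers did not follow as a set, since 5 of the 8 estimates were positive and the median log2 difference was 0.098. Of 8 tested small intestinal enterocyte markers 1 fell, Rbp2, and 1 estimate was positive, in a list with a median log2 difference of -1.18. Several of these lists and shares moved with the genotype beside the changes of Anxa1 given below, and their part in them was not tested. In these bulk samples, fewer cells of a type and less RNA per cell cannot be told apart.

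**Figure D2:**
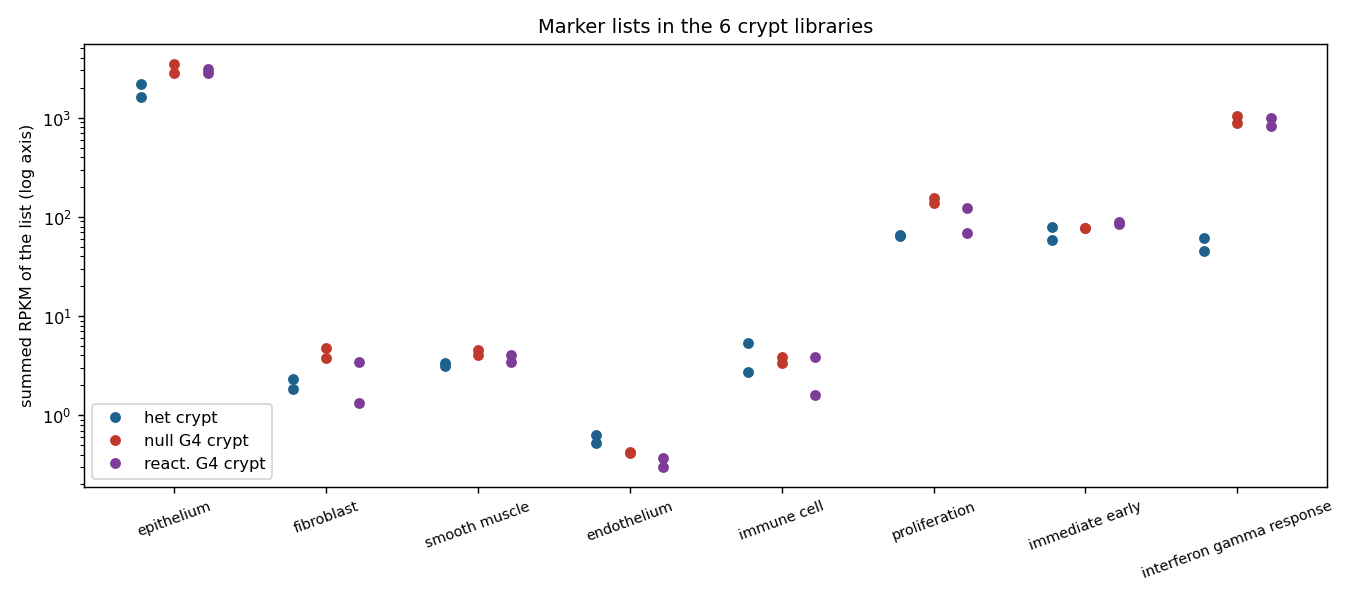
Summed RPKM of 8 marker lists (log axis) in the 6 unsorted crypt libraries, 1 point each. Epithelial markers lie at 1630 RPKM or more in every library and the fibroblast, smooth muscle, endothelial and immune lists at 5.36 or less.

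Of the 10 members, 2 reached 1 RPKM in all 6 crypt libraries, Anxa1 and Areg. Another 3 did so in some, Ajuba in 3 libraries, Cyr61 in 1 and Lats2 in 1, and the remaining 5 (Clu, Ereg, Ctgf, Amotl1 and Amotl2) in none. The order of median RPKM over the 6 crypt libraries was Anxa1 (21.4), Areg (3.26), Ajuba (0.950), Amotl1 (0.766), Cyr61 (0.679), Amotl2 (0.607), Lats2 (0.586), Ereg (0.197), Clu (0.139) and Ctgf (0). Anxa1 lay above Areg in every crypt library and Areg above the other 8, whereas the ranges of Ajuba, Amotl1, Cyr61, Amotl2 and Lats2 overlapped. By its mean Anxa1 stood at percentile 94.9 of the genes listed for crypts and Areg at 72.5.

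**Figure D3:**
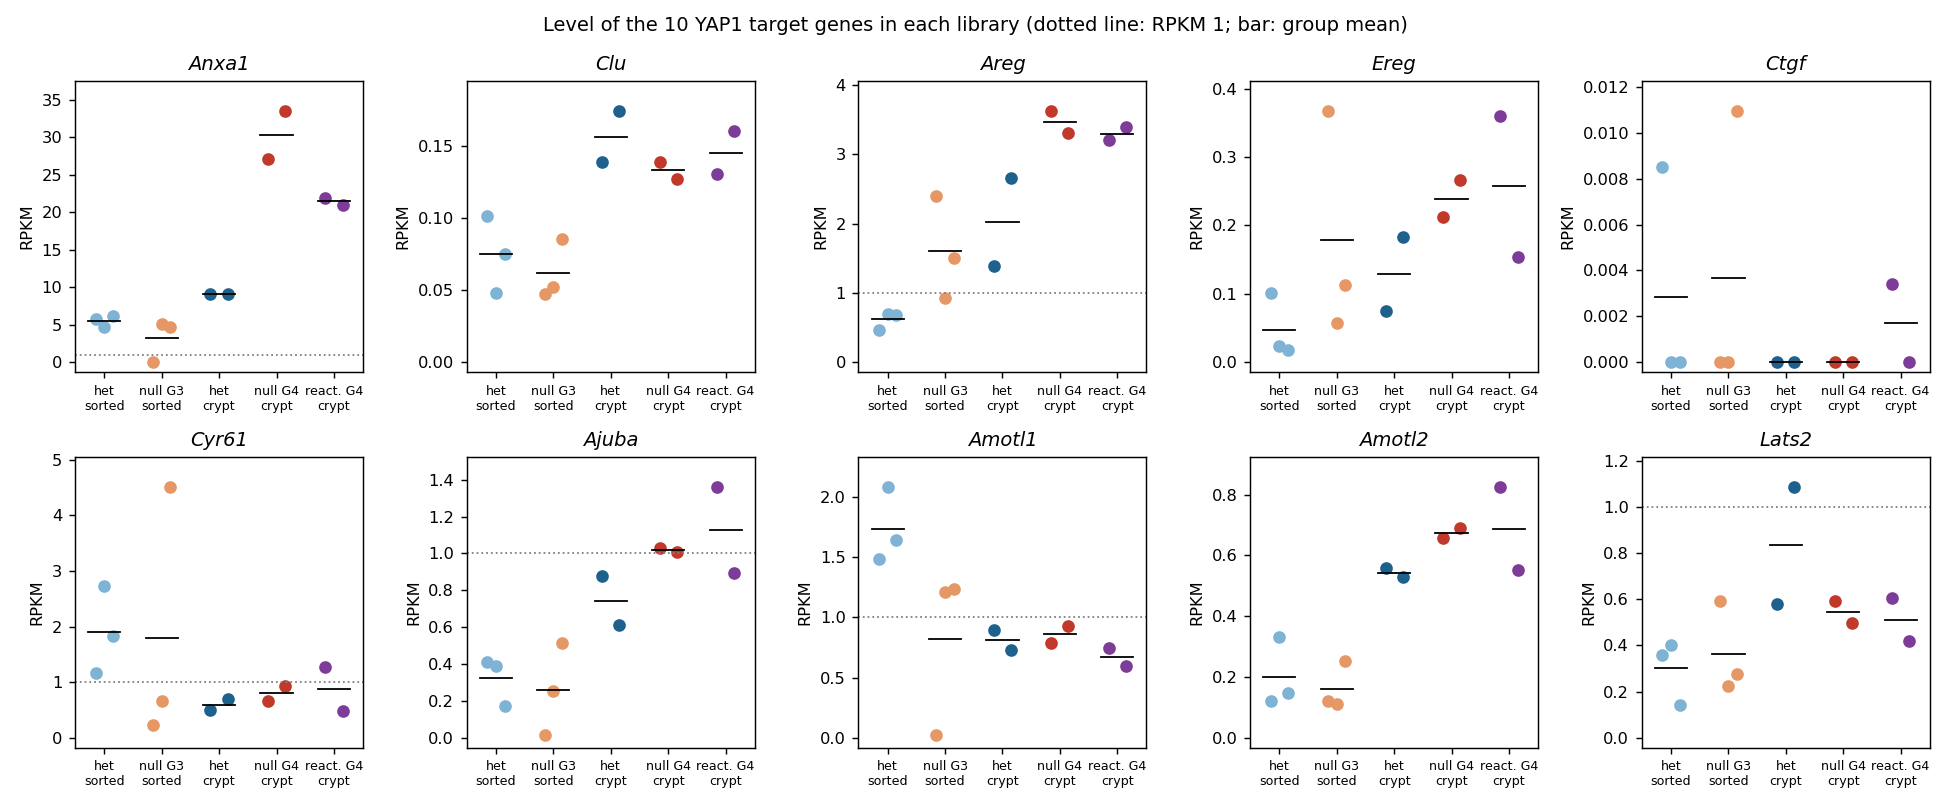
RPKM of each of the 10 members on its own linear axis; each point is 1 library, the bar is the group mean and the dotted line marks 1 RPKM. Anxa1 separates the heterozygous crypts (9.05 and 9.04) from null G4 (27.1 and 33.5) and reactivated crypts (21.9 and 21.0), and Ctgf does not exceed 0.0110 RPKM in any library.

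Anxa1 was the member with a change between genotypes. It encodes annexin A1, a calcium-dependent phospholipid-binding protein known for resolving inflammation and for marking regenerating colonic epithelium (ENSMUSG00000024659, chromosome 19, 20373428 to 20390944). Heterozygous crypts held it at 9.05 and 9.04 RPKM (about 2313 and 2322 reads), null G4 crypts at 27.1 and 33.5, and reactivated crypts at 21.9 and 21.0. The 3 groups did not overlap, with null G4 highest and heterozygous lowest. Means were 30.3 ± 4.55 RPKM (SD, n = 2) in null G4, 21.4 ± 0.696 (SD, n = 2) in reactivated and 9.05 ± 0.0094 (SD, n = 2) in heterozygous libraries, a ratio of means of 3.35 for null G4 and 2.37 for reactivated over heterozygous.

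Against heterozygous crypts Anxa1 rose in null G4 by 1.63 on the log2(RPKM + 1) scale (SE 0.19, adjusted p = 0.00353 by limma), the 80th highest of 11464 tested genes. The median difference of all tested genes was 0.36, and Anxa1 stood at 1.14 after quantile normalization (adjusted p = 0.0199) and 1.22 after median scaling (adjusted p = 0.0177). With a term for Y-linked RNA the estimate was 1.57 and did not pass (adjusted p = 0.0993), nor did it when genes of low value were kept in the test (adjusted p = 0.0667). In reactivated crypts Anxa1 rose over heterozygous by 1.16 (SE 0.19, adjusted p = 0.0278 by limma). That call was lost under either scaling (adjusted p = 0.0676 and 0.0539), with the Y-linked term (adjusted p = 0.0777), without the filter (adjusted p = 0.139), without either heterozygous library (adjusted p = 0.0933 and 0.0968) and without reactivated replicate 1 (adjusted p = 0.0778). Among the 3 libraries with Y-linked RNA, Anxa1 was 21.0 RPKM in the reactivated one and 9.05 and 9.04 in the heterozygous ones. Among the 3 without it, Anxa1 was 21.9 in the reactivated and 27.1 and 33.5 RPKM in the null G4 libraries.

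Reactivated crypts had Anxa1 below null G4 in both libraries, with a difference of -0.47 (SE 0.19, interval -0.91 to -0.04), which did not pass (adjusted p = 0.833 by limma). The median of all genes in that comparison was -0.14. Libraries are shared between the comparisons of crypts, so their results are not independent of each other.

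Clu, which encodes the secreted chaperone clusterin and marks revival stem cells of the injured intestine (ENSMUSG00000022037, chromosome 14, 65968483 to 65981547), stayed far below 1 RPKM. Heterozygous crypts had 0.139 and 0.174 RPKM, null G4 crypts 0.139 and 0.127, and reactivated crypts 0.131 and 0.161, from about 36 to 57 reads per library. The groups overlapped, and the ratio of means of null G4 to heterozygous was 0.850. So of the pair of members tied to regeneration, Anxa1 was abundant and higher in null G4 crypts, and Clu was near the floor in all groups.

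Areg and Ereg encode amphiregulin and epiregulin, secreted ligands of the EGF receptor. They are neighbours on chromosome 5, Ereg (ENSMUSG00000029377) at 91074622 to 91093646 and Areg (ENSMUSG00000029378) at 91139599 to 91148432, with a gap of 46.0 kb. For Areg, the heterozygous pair read 1.39 and 2.66 RPKM (about 148 and 286 reads), the null G4 pair 3.62 and 3.31, and the reactivated pair 3.21 and 3.39. Both heterozygous libraries lay below the other 4, and those 4 lay close together, although heterozygous replicate 2 was nearer to them than to replicate 1 of its own group.

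Areg differed by 0.59 (SE 0.20, interval 0.13 to 1.06) between null G4 and heterozygous crypts and by 0.54 (SE 0.20) between reactivated and heterozygous crypts, and neither passed (adjusted p = 0.0705 and 0.316 by limma). Without heterozygous replicate 2 the former was 0.90 and passed (adjusted p = 0.0475), and without heterozygous replicate 1 it was 0.28 (adjusted p = 0.385). Between reactivated and null G4 crypts it was -0.06 (interval -0.52 to 0.41), and it took the other sign, 0.062 and 0.084, under quantile normalization and median scaling. For Ereg, the heterozygous pair read 0.0741 and 0.183 RPKM, the null G4 pair 0.212 and 0.266, and the reactivated pair 0.360 and 0.154. Its null G4 libraries lay above the heterozygous ones, and the reactivated ones spanned both. An exon of Ereg overlaps the predicted gene Gm19610 on the other strand, and the strand setting of the counting is not given, so reads of the 2 cannot be told apart.

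Other genes of EGF receptor signalling, 9 in the list and 7 tested, gave 0 calls in each of the 3 crypt comparisons. At an unadjusted p under 0.05 by limma the counts were 3 in null G4 and 1 in reactivated against heterozygous crypts and 0 between reactivated and null G4, where 44.2%, 14.1% and 2.70% of all tested genes met the same limit. Hbegf, another ligand known as a YAP1 target, stood at 3.06 and 3.76 RPKM in null G4 crypts against 1.44 and 2.73 in heterozygous ones (adjusted p = 0.0912 by limma). Egfr itself stood at 4.43 and 4.48 against 2.99 and 2.95 RPKM (adjusted p = 0.0717 by limma). The median log2 difference of the tested list was 0.23 between null G4 and heterozygous crypts, where all tested genes had 0.36.

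Ctgf and Cyr61, now also called Ccn2 and Ccn1, encode secreted matricellular proteins and are the targets most used to report YAP1 activity in cultured cells. Ctgf (ENSMUSG00000019997, chromosome 10, 24595442 to 24598683) was listed at 0 in 5 of the 6 crypt libraries and at 0.00340 RPKM in reactivated replicate 1, which corresponds to about 1 read. It was also listed at 0 in 4 of the 6 sorted libraries, with 0.00852 RPKM in heterozygous replicate 1 and 0.0110 in null G3 replicate 3. At this depth no difference between genotypes was detectable for Ctgf. Cyr61 (ENSMUSG00000028195, chromosome 3, 145646976 to 145649981) varied within groups, with heterozygous crypts at 0.493 and 0.696 RPKM, null G4 crypts at 0.662 and 0.929, and reactivated crypts at 1.27 and 0.486 (about 87 to 261 reads), and the groups overlapped. Reactivated replicate 1 was the only crypt library at 1 RPKM or more, and replicate 2 of the same group was the lowest. Immediate early genes are a class that responds to handling and to which Cyr61 also belongs. With replicate 1 first, they summed to 58.3 and 78.6 RPKM for heterozygous, to 76.4 and 77.8 for null G4 and to 85.0 and 89.5 for reactivated crypts. Their part in the level of Cyr61 was not tested.

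The other 4 members encode regulators of the Hippo pathway itself. Lats2 encodes a kinase that phosphorylates YAP1, Amotl1 and Amotl2 encode angiomotin-like scaffolds that hold YAP1 at junctions and in the cytoplasm, and Ajuba encodes a LIM protein that inhibits LATS kinases and so favours YAP1.  Ajuba (ENSMUSG00000022178, chromosome 14, 54567472 to 54577558) lay near 1 RPKM, with heterozygous crypts at 0.879 and 0.610 RPKM, null G4 crypts at 1.03 and 1.01, and reactivated crypts at 1.36 and 0.892. The heterozygous libraries lay below the other 4, narrowly so for reactivated replicate 2. Its differences were 0.21 (SE 0.17, adjusted p = 0.337) for null G4 and 0.28 (SE 0.17, adjusted p = 0.386) for reactivated over heterozygous, and 0.07 (adjusted p = 0.903) for reactivated over null G4, by limma. The first was 0.0097 after median scaling and -0.11 with the term for Y-linked RNA, and the last was -0.093 without reactivated replicate 1.

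Amotl1 and Amotl2 lie on chromosome 9, at 14541966 to 14645056 (ENSMUSG00000013076) and 102716672 to 102733418 (ENSMUSG00000032531). For Amotl1, heterozygous crypts gave 0.893 and 0.729 RPKM, null G4 crypts 0.786 and 0.933, and reactivated crypts 0.745 and 0.596. For Amotl2, heterozygous crypts gave 0.557 and 0.530 RPKM, null G4 crypts 0.657 and 0.691, and reactivated crypts 0.825 and 0.551. The null G4 libraries lay above the heterozygous ones for Amotl2 and overlapped them for Amotl1. Lats2 (ENSMUSG00000021959, chromosome 14, 57689662 to 57758388) was spread widest among heterozygous crypts, at 0.580 and 1.09 RPKM, with null G4 crypts at 0.591 and 0.496 and reactivated crypts at 0.608 and 0.417. It was the member with the lowest ratio of means of null G4 to heterozygous, 0.652, but its groups overlapped and the higher mean rested on heterozygous replicate 2. An exon of Lats2 overlaps the predicted gene Gm49361 on the same strand, and one of Ctgf overlaps Gm15270 on the other strand, which makes their low values less certain.

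Over the whole set, 3 members passed the filter on low values in crypts, Anxa1, Areg and Ajuba, and Ajuba passed it through the null G4 libraries and 1 reactivated library. Of these 3, 1 rose and 0 fell in null G4 against heterozygous crypts, where 5.55% of 11464 tested genes changed and 4.97% rose. The median log2 difference of the 3 was 0.59 against 0.36 for all genes. In the scaled data the calls over all genes split differently, with 58.1% of calls upward after quantile normalization and 55.8% after median scaling against 89.6% as deposited. The null G4 libraries lay above the heterozygous ones without overlap for 5 of all 10 members (Anxa1, Areg, Ereg, Ajuba and Amotl2) and below for 0. Of all 25639 genes with a value 43.6% lay above in this way and 11.5% below, so the share among members is near the background.

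In reactivated against heterozygous crypts 1 of the 3 tested members rose (Anxa1) and 0 fell, where 1.27% of tested genes changed and 1.13% rose. Of those calls over all genes 88.4% were upward as deposited, 75.5% after quantile normalization and 77.1% after median scaling. In this comparison 3 of 10 members did not overlap, all higher, against 28.1% of genes. In reactivated against null G4 crypts 0 of 3 members passed, where 0.0262% of tested genes changed, and 1 of the 3, Anxa1, had an unadjusted p under 0.05 by limma. There 2 of 10 members, Anxa1 and Amotl1, lay lower in both reactivated libraries, against 20.1% of genes.

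**Figure D4:**
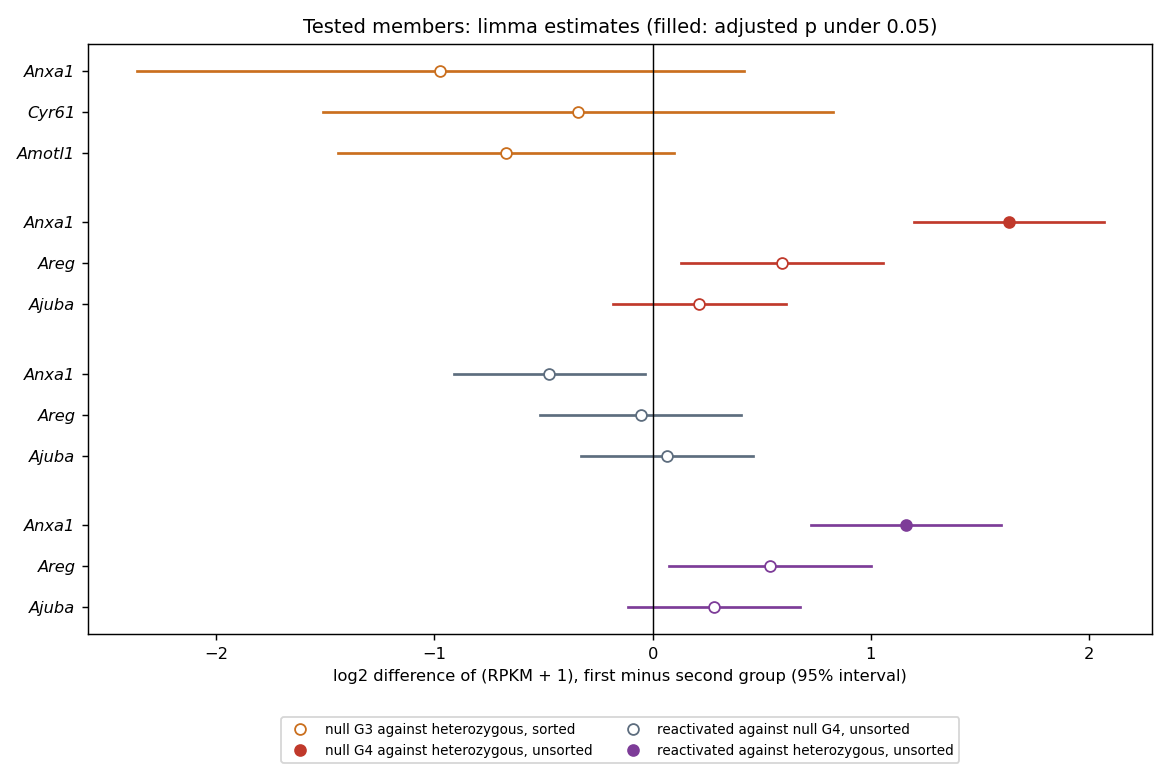
Log2 differences of log2(RPKM + 1) with 95% intervals from limma for the members that passed the filter in each of 4 comparisons; filled points have an adjusted p under 0.05. Anxa1 passes in null G4 (1.63) and reactivated (1.16) against heterozygous crypts, and the intervals of all 3 members in sorted cells span 0.

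In GFP-sorted cells 4 members reached 1 RPKM in any library (Anxa1, Amotl1, Cyr61 and Areg), and 3 were tested, Areg falling short with 2 libraries. No member passed, as 0% of 8734 tested genes did, and 0 of the 3 members and 143 of all genes had an unadjusted p under 0.05 by limma (232 genes without null G3 replicate 1). Heterozygous libraries had Anxa1 at 5.76, 4.70 and 6.14 RPKM, and null G3 libraries at 0.0602, 5.03 and 4.69. All but null G3 replicate 1 lay close together, so that the difference of -0.97 (SE 0.62, adjusted p = 0.481 by limma) was -0.15 (adjusted p = 0.875) without that library. Unlike in crypts, Anxa1 was thus not higher in either of the other 2 null G3 libraries than in the heterozygous range. Generation, sorting and sample all differ between these sets, and the difference between the null effects was not tested.

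Heterozygous sorted cells had Amotl1 at 1.49, 2.09 and 1.64 RPKM, and null G3 cells at 0.0184, 1.21 and 1.24. All null G3 libraries lay below all heterozygous ones, which held for 8.32% of 24047 genes with a value (10.1% without null G3 replicate 1). The difference of -0.67 (SE 0.34, adjusted p = 0.481 by limma) was -0.29 without null G3 replicate 1. Cyr61 measured 0.234, 0.652 and 4.51 RPKM in null G3 against 1.17, 2.72 and 1.83 in heterozygous libraries, so that null G3 held both the lowest and the highest value. Its difference of -0.34 (SE 0.52, adjusted p = 0.620 by limma) became 0.089 without null G3 replicate 1. Immediate early genes also varied widely here, summing to 67.4 to 171.5 RPKM in heterozygous and 51.6 to 183.4 in null G3 sorted libraries. Their part in the level of Cyr61 was not tested here either.

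Areg lay the other way from Amotl1 in sorted cells, higher in null G3, and it was also higher in null G4 than in heterozygous crypts. It measured 2.40, 0.918 and 1.51 RPKM in null G3 against 0.462, 0.696 and 0.685 in heterozygous libraries, so that all null G3 libraries lay above all heterozygous ones, which held for 0.865% of the same genes. Without null G3 replicate 1 it held for 3.64%. The highest value belonged to null G3 replicate 1, and the other 2 libraries still lay above the heterozygous range. In the fit without a filter, limma gave Areg a difference of 0.66 (SE 0.27, unadjusted p = 0.0558, adjusted p = 0.639), and without null G3 replicate 1 one of 0.44 (SE 0.19, adjusted p = 0.892). Ereg measured 0.367, 0.0565 and 0.113 RPKM in null G3 against 0.101, 0.0229 and 0.0180 in heterozygous libraries and overlapped. The remaining members were low in sorted cells, with Ajuba at 0.0144 to 0.516 RPKM, Amotl2 at 0.111 to 0.331, Lats2 at 0.142 to 0.592 and Clu at 0.0475 to 0.101, and none of these separated the groups.

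Set side by side, 4 members (Anxa1, Ajuba, Amotl2 and Clu) had all 6 unsorted values above all 6 sorted ones. The share of all genes that did so was not counted, so this cannot be read as a trait of these members. Mitochondrial ribosomal RNA took an estimated 31.7% to 59.6% of the reads in sorted libraries and 5.32% to 16.7% in unsorted ones. Its part in these levels was not tested. Amotl1 and Cyr61 tended the other way, with medians of 1.36 and 1.50 RPKM in sorted against 0.766 and 0.679 in unsorted libraries and overlapping ranges. Without null G3 replicate 1, Lats2 also lay higher in unsorted libraries (0.417 or more against 0.402 or less), and Amotl1 lay higher in sorted ones (1.21 or more against 0.933 or less). The 2 sets list different genes and may have been normalized apart, so no test was made between them.

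Yap1 itself was measurable throughout, with heterozygous crypts at 3.72 and 3.57 RPKM, null G4 crypts at 4.88 and 5.69, and reactivated crypts at 5.41 and 4.06. Its difference of 0.43 between null G4 and heterozygous crypts (SE 0.17, adjusted p = 0.0870 by limma) lay near the median of all genes. It passed when reactivated replicate 1 or 2 was left out (adjusted p = 0.0221 and 0.0219), refits in which the calls over all genes rose from 636 to 5686 and 5693. Wwtr1 stood at 0.0250 and 0.0477 RPKM in null G4 against 0.0879 and 0.130 in heterozygous crypts, from about 55 reads or fewer, and was not tested. Of 7 YAP and TEAD genes 6 were tested and 0 passed, and of 13 Hippo kinases and scaffolds 12 were tested and 0 passed, in each crypt comparison. At an unadjusted p under 0.05 by limma, the counts were 1 YAP or TEAD gene and 8 Hippo genes for null G4 against heterozygous crypts, 0 and 5 for reactivated against heterozygous, and 0 of either for reactivated against null G4, beside 44.2%, 14.1% and 2.70% of all tested genes.

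Among 24 other YAP and TAZ targets, 13 were tested, and 3 rose and 0 fell in null G4 against heterozygous crypts, where 4.97% of all tested genes rose. At an unadjusted p under 0.05 by limma there were 6 of the 13, beside 44.2% of all tested genes. The median log2 difference of the 13 was 0.54 against 0.36 for all genes. Ly6a, which encodes the surface protein Sca-1 of regenerating epithelium, rose by 3.55 (SE 0.22, adjusted p = 1.2e-04 by limma), from 13.8 and 15.6 to 171.3 and 193.7 RPKM. It has close relatives, so shared reads make its single value uncertain. Interferon gamma response genes also rose in this comparison (9 of 10 tested, median log2 difference 2.59), and their part in the rise of Ly6a was not tested. The membrane-repair protein gene Myof rose by 0.72 (adjusted p = 0.0335) and the mitotic survivin gene Birc5 by 1.08 (adjusted p = 0.0439) by limma, and both calls were lost without the filter, under either scaling, with the Y-linked term and in 4 of 6 refits without 1 library. Birc5 is also a proliferation gene, and that list summed higher in null G4 crypts as given above. In reactivated against heterozygous crypts 1 of the 13 rose, Ly6a (3.25), where 1.13% of all tested genes did. In reactivated against null G4 crypts 0 passed, where 0.0262% of all tested genes did.

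Of a list of 9 genes of fetal-like regenerating epithelium 4 were tested. In null G4 against heterozygous crypts 3 of them rose, where 4.97% of all tested genes did. These were Ly6a, the annexin gene Anxa8 (1.60, adjusted p = 0.0205 by limma) and the gap junction gene Gja1 (0.87, adjusted p = 0.0270 by limma). Ly6a is also counted among the other YAP and TAZ targets and Anxa8 among the other annexins, so these lists are not independent. Gja1 passed the filter only through the null G4 and reactivated libraries, since both heterozygous ones were below 1 RPKM (0.658 and 0.400). Its call was lost without the filter, under median scaling, with the Y-linked term and in 3 of 6 refits without 1 library. Spp1, the osteopontin gene, was at or below 0.0415 RPKM in every crypt library.

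Anxa1 was set beside 11 other annexins, of which 9 were tested. In null G4 against heterozygous crypts 2 rose, Anxa8 and Anxa3 (1.20, adjusted p = 0.0242 by limma), and 0 fell, where 4.97% of all tested genes rose. The median difference of the 9 was 0.68 against 0.36 for all genes. Anxa8 went from 2.20 and 1.82 to 7.18 and 9.17 RPKM, and Anxa3 from 18.0 and 15.1 to 36.8 and 41.7 RPKM. Both calls were lost without the filter and under either scaling (for the scalings, adjusted p from 0.124 to 0.162), that of Anxa3 also with the Y-linked term (adjusted p = 0.146) and in 3 of 6 refits without 1 library. Anxa2, the most abundant of the family in null G4 crypts, was 34.6 and 50.9 against 75.4 and 87.4 RPKM and did not pass (adjusted p = 0.0547 by limma). Anxa13, an annexin of enterocytes, stood at 4.89 and 5.02 RPKM in null G4 against 7.85 and 7.71 in heterozygous crypts, a difference of -0.56 (adjusted p = 0.0577 by limma).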

How the data were processed

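RNA of 12 libraries was measured by sequencing. TruSeq RNA libraries were made from 1 ug of column-purified RNA, per the labels' protocols. STAR 2.3.0e and mm10 are named, without a role, in the submitters' processing notes. For annotation, counting tool and strand setting, the sources used here give nothing. The authors deposited RPKM values, with 25686 genes listed for sorted and 27658 for unsorted libraries.

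A gene was tested if the number of libraries with it at 1 RPKM or above was no smaller than the smallest group. Tests used limma 3.58.1 in R 4.3.3 on log2(RPKM + 1), two-sided, with a trended empirical Bayes variance, for sorted and unsorted libraries apart, with Benjamini-Hochberg adjustment over all tested genes and a threshold of 0.05. Coordinates come from GENCODE M21. Read numbers are RPKM times exon length times implied depth, and 90.4% to 91.5% of low unsorted values came out whole within 0.05 reads for up to 5 reads. The tests were checked on simulated data. Plots were drawn in Python 3.11.15.

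The members and lists were chosen with earlier results of these data known. All members, Yap1 and Wwtr1 were to be named, and of other pathway lists up to 4 genes that passed. Other genes with values were chosen after these were seen (Hbegf, Egfr, Anxa2, Anxa13, Spp1). Alternatives were another pseudocount (0.1), no filter, quantile normalization, median scaling, a replicate block, a term for Y-linked RNA and leaving out each library.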

Additional observations from a re-analysis of the deposited data

How the results depend on the processing

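The 2 calls of Anxa1 set the counts of members called. In null G4 against heterozygous crypts the count of 1 became 0 without the filter and with the Y-linked term, and ranged from 1 to 2 when 1 library was left out (2 without heterozygous replicate 2). In reactivated against heterozygous crypts it became 0 without the filter, under quantile normalization, under median scaling and with the Y-linked term, and ranged from 0 to 1 when 1 library was left out. The cause was not tested. Anxa1 kept its direction in all of these fits. Calls over all genes in null G4 against heterozygous crypts (636) numbered 21 without the filter, 241 and 240 under quantile normalization and median scaling, 1317 with the replicate block, 69 with the Y-linked term, and 176 to 5693 without 1 library, 5686 or more only without a reactivated one and 323 or fewer without any other. In reactivated against null G4 crypts (3) they numbered 0 without the filter, 0 under quantile normalization, 9 with the replicate block, 6 with the Y-linked term and 4 to 184 without 1 library. In reactivated against heterozygous crypts (146) they numbered 22 without the filter, 94 and 96 under the scalings, 264 with the replicate block and 120 to 2298 without 1 library.

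Estimates that changed sign, none of which passed in any fit, were those of Cyr61 in sorted cells (0.089 without null G3 replicate 1, with or without the filter, the latter chosen after seeing the data, range -0.99 to 0.089 when 1 library was left out), Yap1 in sorted cells (0.018 and 0.027 under quantile normalization and median scaling), Ajuba in null G4 (-0.11 with the Y-linked term) and in reactivated against null G4 crypts (-0.093 without reactivated replicate 1, range -0.093 to 0.23), and in the latter comparison Areg (0.062 and 0.084 under the scalings) and Yap1 (0.0085 and 0.0072 under quantile normalization and median scaling, 0.030 with the Y-linked term and 0.030 without reactivated replicate 2, range -0.31 to 0.030). Of 147 refits of members 131 kept direction and side of the threshold.

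Whether equal replicate numbers pair the samples was not settled. Deviations of same-numbered sorted libraries correlated at 0.053, -0.030 and -0.19, within the -0.11 to 0.21 of different-numbered ones except for the last. Those of same-numbered unsorted libraries correlated at 0.22, -0.069 and -0.12 between groups. With 2 libraries per group, different-numbered unsorted pairs have the same values with the other sign by construction, so these cannot decide it. The replicate block changed no call of a member, with Anxa1 at an adjusted p of 4.4e-04 and 0.0171 by limma in the comparisons with heterozygous crypts. With 2 libraries per group, members under 1 RPKM could be described only by their values.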

Other observations

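Over the 6 crypt libraries the genes whose log2(RPKM + 1) followed Anxa1 most closely, among 10203 genes compared, were S100a16, a calcium-binding protein gene (Pearson's r = 0.999), Plp2 (0.999) and Lrrfip1 (0.998). S100a16 had 22.7 and 22.8 RPKM in heterozygous crypts, against 58.2 and 69.0 in the null G4 pair and 50.6 and 46.9 in the reactivated pair, the same order of groups as Anxa1. The genes most like Areg were Etv3, an ETS family repressor gene (0.993), Neurl3 (0.992) and Rsbn1l (0.989), and like Areg they had heterozygous replicate 1 lowest. Those most like Ajuba were the immediate early gene Ier2 (0.992), Cnih2 (0.985) and Arv1 (0.984), all highest in reactivated replicate 1 and lowest in heterozygous replicate 2. The 6 libraries fall into 3 groups of 2, so these values describe likeness in these libraries only.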
